A study of Mus musculus with 6 samples.

Results

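The transcripts of 10 mouse genes of the ATF4-CHOP branch of the integrated stress response were measured in embryonic hearts with and without a conditional deletion of Mrps5, which encodes a protein of the small subunit of the mitochondrial ribosome. The genes are Atf4, Ddit3 (the gene of CHOP), Atf3, Atf5, Cebpb, Cebpg, Trib3, Ppp1r15a, Chac1 and Nupr1, and they were taken by symbol from the 26191 genes of the deposited table after the transcript values of each gene had been summed. They were chosen by their measured FPKM differences between the groups in these same libraries, so their differences are described below with standard errors and without a test. The cKO group held 3 libraries of Mrps5 fl/fl; cTNT-Cre hearts, and the Ctrl group 3 libraries of Mrps5 fl/fl hearts from littermates, which carried the same floxed alleles but no Cre. All hearts were labelled as embryonic day 12, and each library was a pool of 5 hearts. Cre was driven by the promoter of the cardiac troponin T gene, so recombination was directed to cardiomyocytes while the other cells of the pooled hearts kept both alleles. An effect of Cre itself cannot be told apart from that of the deletion, because no group carried Cre without the floxed alleles.

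In the integrated stress response, kinases that sense different stresses phosphorylate the translation factor eIF2alpha, which lowers general protein synthesis but favours translation of the Atf4 message. ATF4 is a basic leucine zipper (bZIP) transcription factor that binds DNA as a dimer, often with a C/EBP protein, and activates genes of amino acid synthesis, amino acid transport and stress adaptation. Among its targets are CHOP and other bZIP factors, as well as proteins that restrain the response: TRIB3 binds and inhibits ATF4 and CHOP, and GADD34, the product of Ppp1r15a, brings a phosphatase to eIF2alpha. In heart muscle the pathway is known for its activation when mitochondrial gene expression or respiration is impaired. Since much of the control of ATF4 lies in translation, its message level alone does not report the amount of protein.

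ATF4 and C/EBP proteins recognise a composite element with the letters TGATGNAA, and several bZIP dimers recognise the palindrome TGACGTCA. RefSeq promoter windows (GRCm38.p6) of 300 bases, from 250 bases before to 50 after each transcription start, were found for 10 of the 10 genes and searched on both strands. TGATGNAA stood in the windows of 4 of the 10, Chac1, Nupr1, Atf3 and Trib3, and in those of 4.51% of 27025 genes with a window. The Chac1, Nupr1 and Atf3 sequences are shown because the same 8 letters recur upstream of the start of each, and the capitals mark them as they read on the strand of the gene, where TTGCATCA is the reverse complement of TGATGCAA. The Chac1 stretch lies at chr2:119350992-119351241 on the plus strand, the Nupr1 stretch at chr7:126625471-126625720 on the minus strand and the Atf3 stretch at chr1:191183334-191183583 on the minus strand. Each runs 5′ to 3′ and ends at the base before the start.
Chac1: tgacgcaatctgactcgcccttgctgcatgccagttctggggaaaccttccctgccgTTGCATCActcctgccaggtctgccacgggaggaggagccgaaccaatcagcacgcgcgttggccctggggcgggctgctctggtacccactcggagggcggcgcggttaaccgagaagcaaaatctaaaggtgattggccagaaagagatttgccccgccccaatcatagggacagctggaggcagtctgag
Nupr1: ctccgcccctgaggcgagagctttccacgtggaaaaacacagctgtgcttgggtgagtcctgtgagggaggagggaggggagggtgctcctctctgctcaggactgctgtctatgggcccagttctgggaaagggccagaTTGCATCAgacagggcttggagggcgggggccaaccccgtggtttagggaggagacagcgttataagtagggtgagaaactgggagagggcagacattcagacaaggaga
Atf3: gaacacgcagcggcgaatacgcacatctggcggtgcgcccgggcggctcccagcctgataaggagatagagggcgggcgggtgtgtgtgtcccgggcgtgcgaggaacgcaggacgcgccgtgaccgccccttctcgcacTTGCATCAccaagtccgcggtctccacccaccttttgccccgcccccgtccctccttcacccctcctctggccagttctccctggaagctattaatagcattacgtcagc
In Atf3 and Nupr1 the match occupied the same positions, from 110 to 103 bases before the start, and in Chac1 it lay between 193 and 186 bases before it.

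In Trib3 the match lay after the start, from base 15 to base 22 of the transcript, within a stretch at chr2:152344028-152344057 on the minus strand, and is in capitals.
Trib3: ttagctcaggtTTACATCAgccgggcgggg
TGACGTCA was found in the window of 1 of the 10 genes, Ppp1r15a, and in 2.03% of all genes with a window. It lay from 12 to 5 bases before the start, and the 60 bases that precede the start, at chr7:45526269-45526328 on the minus strand, are shown with the palindrome in capitals.
Ppp1r15a: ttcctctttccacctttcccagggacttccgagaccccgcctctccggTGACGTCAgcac
A match describes letters only, since binding was not measured, and a window without a match says only that these letters are not in it.

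Expression was given as FPKM, fragments assigned to a transcript, scaled by its length and by the mapped fragments of the library, and fold changes are on the log2(FPKM + 1) scale, which understates the change of genes with low values. The deleted gene was measured first as a check of the labels. Mrps5 had 9.65, 11.4 and 10.4 FPKM in Ctrl replicates 1, 2 and 3, and 5.28, 7.41 and 10.4 FPKM in cKO replicates 1, 2 and 3, a log2 fold change of -0.44 ± 0.19 (SE, adjusted p = 0.338 from limma). It was -0.23 without cKO replicate 1 and -0.66 without cKO replicate 3 (adjusted p = 0.578 and 0.0691 from limma). The library labelled cKO replicate 3 was thus at the Ctrl level of Mrps5, while cKO replicates 1 and 2 lay below every Ctrl library. The cardiomyocyte gene Actc1, for cardiac alpha-actin, stood at 2254 to 3340 FPKM in the 6 libraries, so heart muscle was well represented. Depth is not given, but the smallest steps of low values put the libraries within a 1.61-fold range of relative depth, with 12830 to 13514 genes at 1 FPKM or more. That range is a rough estimate. It rests on 28 to 46 of the 327 to 389 genes compared with Ctrl replicate 1 in each other library. Over the 13260 genes tested, the median log2 fold change was -0.02, and in the limma fit 0.083% had an adjusted p under 0.05 and 15% an unadjusted p under 0.05.

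All 10 genes had a higher mean in cKO than in Ctrl hearts, with log2 fold changes from 0.60 for Cebpg to 2.64 for Chac1 and a median over the 10 of 1.43. In 9 of the 10, every cKO library lay above every Ctrl library, where 7.74% of all genes tested did so, and Atf3 was the exception. All 10 passed the filter of at least 1 FPKM in 3 libraries, but Chac1 and Nupr1 passed only through the cKO libraries. The summed FPKM of the 10 genes was 102.1, 107.2 and 108.4 in Ctrl replicates 1, 2 and 3, and 356.5, 309.0 and 201.9 in cKO replicates 1, 2 and 3. At an adjusted p under 0.05 the same fit would call 2 of the 10 where it called 0.0528% of all genes as higher, and 10 of 10 without cKO replicate 3, where it called 2.04% of all genes in either direction. Leaving out cKO replicate 2 gave 3 of the 10 (0.913% of all genes), leaving out cKO replicate 1 gave 1 (0.0528% of all genes), and leaving out Ctrl replicate 1, 2 or 3 gave 1 each (0.0452%, 0.0377% and 0.0452% of all genes). Since this contrast chose the genes, nothing is read from these counts.

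**Figure D1:**
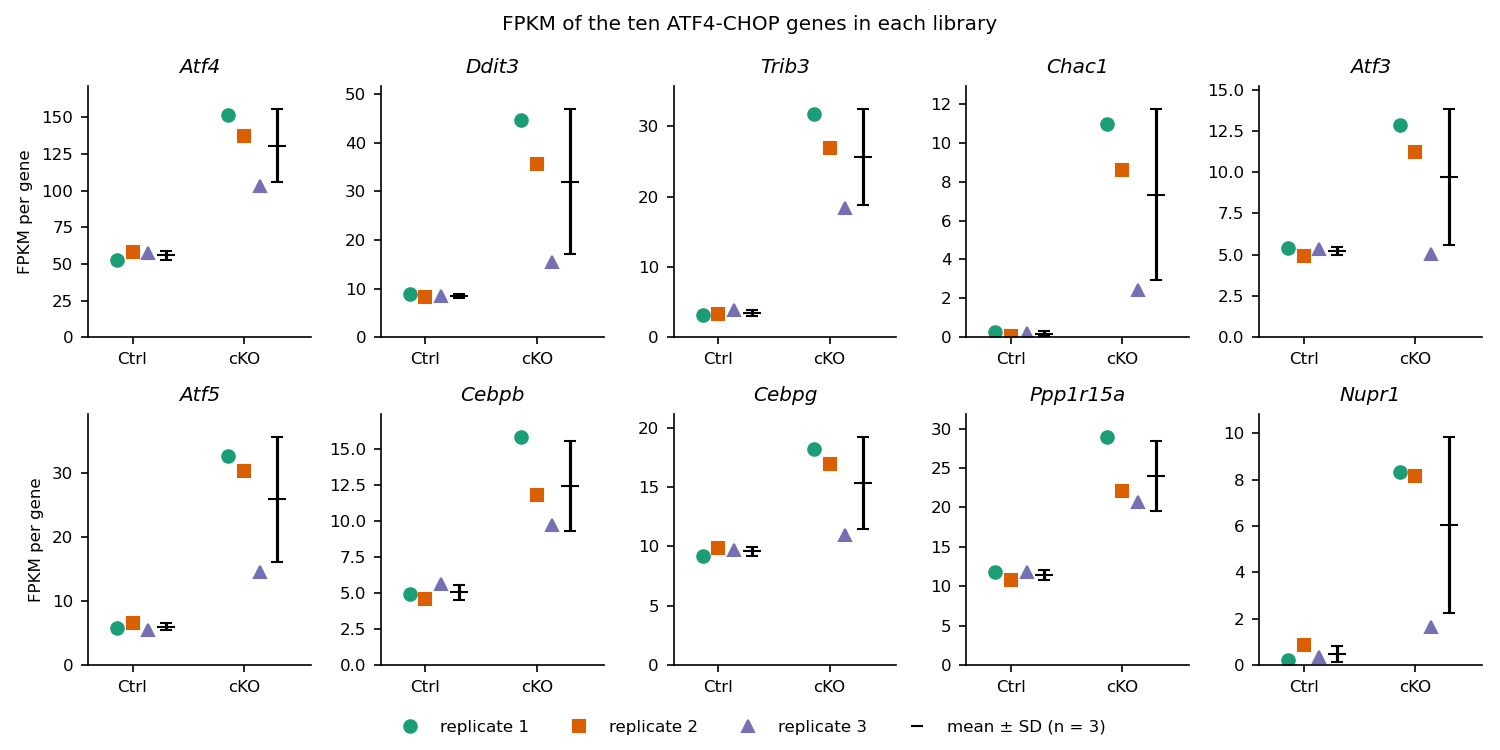
FPKM (vertical axes, each from 0) of the 10 genes in the Ctrl and cKO groups, with a circle, square and triangle for replicates 1, 2 and 3, and the mean ± SD (n = 3) in black beside them. The Ctrl libraries lie close together in each panel, and cKO replicate 3 is the lowest cKO library in all 10, at the Ctrl level in Atf3.

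Atf4 (ENSMUSG00000042406), the factor at the head of the branch, was the most abundant of the 10 genes in every library. It had 52.5, 58.1 and 57.5 FPKM in Ctrl replicates 1, 2 and 3 and 152, 137 and 103 FPKM in cKO replicates 1, 2 and 3. The lowest cKO library was 1.84-fold above the Ctrl mean and the highest 2.71-fold. The means were 56.0 ± 3.09 (SD, n = 3) in Ctrl and 131 ± 25.1 (SD, n = 3) in cKO hearts, a log2 fold change of 1.19 ± 0.14 (SE). Atf4 was already among the abundant messages of control hearts, above 92.8% of the genes tested.

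Ddit3 (ENSMUSG00000025408) encodes CHOP, the C/EBP-family factor that ATF4 induces and that takes part in both adaptation and cell death under prolonged stress. Its level was 8.82, 8.20 and 8.38 FPKM in Ctrl replicates 1, 2 and 3 and 44.8, 35.7 and 15.5 FPKM in cKO replicates 1, 2 and 3. All cKO values were above the Ctrl range, but the value of cKO replicate 3 was less than that of either other cKO library by more than the whole Ctrl range. The log2 fold change was 1.68 ± 0.32 (SE), from a mean of 8.47 ± 0.319 to 32.0 ± 15.0 FPKM (SD, n = 3 each), and the level of Ddit3 was above 47.0% of the genes tested in Ctrl and 86.0% in cKO hearts.

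Atf5 (ENSMUSG00000038539) encodes a bZIP factor that, like ATF4, is controlled in translation by upstream reading frames and has been tied to the mitochondrial stress response. It had 5.85, 6.59 and 5.50 FPKM in the Ctrl and 32.8, 30.4 and 14.6 FPKM in the cKO libraries, in the order of replicates 1, 2 and 3. The groups did not overlap, and cKO replicates 1 and 2 differed little from each other. The log2 fold change of 1.87 ± 0.26 (SE) exceeded that of every other bZIP factor among the 10 genes.

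Atf3 (ENSMUSG00000026628), a bZIP repressor that is also an immediate-early gene, set itself apart within the group. Its level was 5.39, 4.93 and 5.34 FPKM in Ctrl replicates 1, 2 and 3 and 12.9, 11.2 and 5.04 FPKM in cKO replicates 1, 2 and 3. The cKO replicates 1 and 2 were above all Ctrl libraries, whereas cKO replicate 3 lay within the Ctrl range, so the groups overlapped. The log2 fold change was 0.70 ± 0.27 (SE) over all libraries and 1.07 without cKO replicate 3, which therefore moved the value by more than 1.5 times.

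Cebpb (ENSMUSG00000056501) and Cebpg (ENSMUSG00000056216) encode C/EBP proteins that can pair with ATF4 on composite elements. Cebpb had 4.96, 4.57 and 5.62 FPKM in Ctrl replicates 1, 2 and 3 and 15.9, 11.8 and 9.73 FPKM in cKO replicates 1, 2 and 3, with a log2 fold change of 1.13 ± 0.16 (SE). Cebpg had 9.16, 9.86 and 9.73 FPKM in the same Ctrl libraries and 18.3, 16.9 and 10.9 FPKM in the same cKO libraries, with a log2 fold change of 0.60 ± 0.17 (SE). Neither gene had overlapping groups, although Cebpg in cKO replicate 3 was only 1.14-fold above its Ctrl mean. Over all libraries Cebpg had the smallest log2 fold change of the 10 genes, whereas in cKO replicate 3 Atf3 had the smaller difference, and without cKO replicate 1 both genes were at 0.47.

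Trib3 (ENSMUSG00000032715), the pseudokinase that binds ATF4 and CHOP and dampens their activity, had a large difference in every cKO library. It stood at 3.14, 3.28 and 3.89 FPKM in Ctrl replicates 1, 2 and 3 and at 31.8, 26.9 and 18.4 FPKM in cKO replicates 1, 2 and 3. The lowest cKO library was 5.34-fold above the Ctrl mean, and the groups were far apart. The means were 3.44 ± 0.396 and 25.7 ± 6.81 FPKM (SD, n = 3 each), and the log2 fold change was 2.56 ± 0.18 (SE), the fifth highest of all genes tested.

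Ppp1r15a (ENSMUSG00000040435) encodes GADD34, the subunit that directs phosphatase activity to eIF2alpha and so ends the translational block. Its level was 11.8, 10.7 and 11.8 FPKM in Ctrl replicates 1, 2 and 3 and 29.0, 22.1 and 20.7 FPKM in cKO replicates 1, 2 and 3. The groups did not overlap, and the log2 fold change was 0.99 ± 0.13 (SE). The cKO replicates 2 and 3 stood close together below cKO replicate 1.

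Chac1 (ENSMUSG00000027313), which encodes an enzyme that degrades glutathione and lies downstream of ATF4 and CHOP, was barely present in control hearts. It had 0.290, 0.0635 and 0.198 FPKM in Ctrl replicates 1, 2 and 3 and 11.0, 8.62 and 2.43 FPKM in cKO replicates 1, 2 and 3. The cKO libraries lay 13.2-fold to 59.7-fold above the Ctrl mean of 0.184 FPKM, ratios that rest on control values close to 0. On the log2(FPKM + 1) scale the fold change was 2.64 ± 0.41 (SE), and with 0.1 added in place of 1 it was 4.55. This was the largest value of the 10 genes over all libraries, but Trib3 exceeded it without cKO replicate 1 (2.39 against 2.28) and without cKO replicate 2 (2.51 against 2.44).

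Nupr1 (ENSMUSG00000030717), a small stress-induced nuclear protein gene, behaved like Chac1 in its low control level. It had 0.213, 0.875 and 0.361 FPKM in Ctrl replicates 1, 2 and 3 and 8.34, 8.14 and 1.64 FPKM in cKO replicates 1, 2 and 3. The groups did not overlap, but cKO replicate 3 lay nearer to the Ctrl libraries than to cKO replicates 1 and 2. The log2 fold change was 2.06 ± 0.45 (SE) with 1 added and 3.25 with 0.1 added.

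The order of abundance differed between the groups. In Ctrl hearts Atf4 came first, followed by Ppp1r15a, Cebpg, Ddit3, Atf5, Atf3, Cebpb, Trib3, Nupr1 and Chac1. Among neighbours in that order, the ranges over the 3 libraries overlapped for Atf3 and Cebpb and for Nupr1 and Chac1, and for no other pair. In cKO hearts Atf4 was followed by Ddit3, Atf5, Trib3, Ppp1r15a, Cebpg, Cebpb, Atf3, Chac1 and Nupr1. There, the ranges of neighbours were separate for Atf4 and Ddit3 and for Ppp1r15a and Cebpg, and overlapped for every other pair. By its mean level Trib3 was above 22.4% of the genes tested in Ctrl and 81.6% in cKO hearts, and Nupr1 above 0.0679% and 37.4%.

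The 3 cKO libraries differed in the size of the response, and the 10 genes ranked them alike. All 10 had their highest cKO value in replicate 1, the next in replicate 2 and the lowest in replicate 3, where 16.6% of all genes tested had this order and 41.3% had cKO replicate 3 as the lowest cKO library. Replicate numbers name pools and carry no order of their own. The median log2 difference of the 10 genes from the Ctrl mean was 1.88 in cKO replicate 1, 1.62 in cKO replicate 2 and 0.84 in cKO replicate 3, and over all genes tested these medians were -0.04, 0.03 and -0.05. Mrps5 ranked the libraries in reverse, at -0.87, -0.44 and -0.01. With 3 libraries this is a description, and whether the remaining Mrps5 level is related to the size of the response was not tested.

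The genes kept different parts of their response in cKO replicate 3. The log2 difference of Trib3 there was 2.13, or 73.7% of that in cKO replicate 1. Ppp1r15a kept 63.0%, Atf4 60.9%, Cebpb 56.0% and Atf5 51.2% of their difference in cKO replicate 1. The percentage was lower for Chac1 (46.0%), Ddit3 (35.3%), Nupr1 (32.0%) and Cebpg (20.3%), and the Atf3 difference was -0.04. On plain FPKM ratios, looked at after the values were seen, Chac1 kept 63.1% and Nupr1 43.0%, beside 61.0% for Atf4, so the low place of Chac1 depends on the 1 added to its near-0 control values. Ddit3 kept 36.3% and Cebpg 20.6% on plain ratios, both less than Atf4 on either scale.

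**Figure D2:**
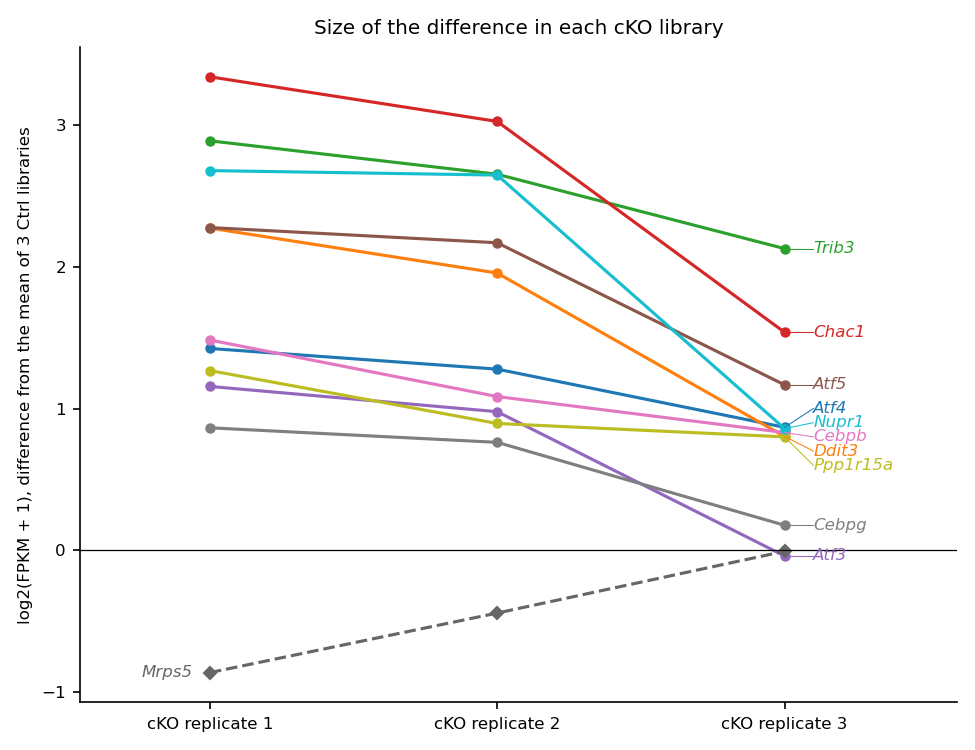
Difference of each cKO library from the mean of the 3 Ctrl libraries on the log2(FPKM + 1) scale (vertical axis) for the 10 genes and for Mrps5 (dashed), with lines that join the values of 1 gene and imply no order of the pools. All 10 lines are lowest at cKO replicate 3, from -0.04 for Atf3 to 2.13 for Trib3, and Mrps5 lies at -0.87, -0.44 and -0.01.

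Across the 6 libraries the log2 level of each gene followed the mean of the other 9, with a Pearson r from 0.898 for Atf3 to 0.997 for Chac1. These values carry no p, since the libraries form 2 groups that the choice of genes had set apart. Outside the 10 genes, the closest profiles to their mean were those of Cdsn (r = 0.996), Adm2 (0.995), Cyb5r1 (0.993), Pycr1 (0.993), Fam129a (0.992) and Pck2 (0.992) over the same 6 libraries. Cdsn and Adm2 passed the filter only through their cKO values. Pycr1 makes proline in mitochondria, Pck2 is the mitochondrial phosphoenolpyruvate carboxykinase, Adm2 encodes a secreted peptide of the calcitonin family, and Cdsn encodes corneodesmosin, a protein known from skin. Cdsn was at 0.0845, 0.126 and 0.112 FPKM in Ctrl replicates 1, 2 and 3 and at 5.29, 4.60 and 1.08 FPKM in cKO replicates 1, 2 and 3, a pattern close to that of Chac1 at a lower level.

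Of the 10 genes, 6 were represented by 1 transcript with a value above 0, and Ddit3, Atf5, Cebpg and Ppp1r15a by more. The main Ddit3 transcript, ENSMUST00000026475, had 6.26, 5.63 and 5.99 FPKM in Ctrl replicates 1, 2 and 3 and 40.0, 31.1 and 14.5 FPKM in cKO replicates 1, 2 and 3. The other, ENSMUST00000139091, had 2.56, 2.57 and 2.40 FPKM in the same Ctrl libraries and 4.76, 4.61 and 0.983 FPKM in the same cKO libraries. Its share of the gene was 28.6% to 31.3% in Ctrl and 10.6%, 12.9% and 6.34% in the cKO libraries, and in cKO replicate 3 its level was below the Ctrl range. The higher level of Ddit3 was thus carried largely by the main transcript.

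The other 3 genes showed no such split by group. The share of Atf5 in ENSMUST00000047356 was 73.2%, 15.9% and 86.5% in Ctrl replicates 1, 2 and 3 and between 65.3% and 83.5% in cKO, so its isoform values varied more within the Ctrl group than the sum did. The minor Cebpg transcript ENSMUST00000070191 held 6.21% to 8.02% of the gene in Ctrl hearts, and 20.2%, 8.76% and 7.58% in cKO replicates 1, 2 and 3. The main Ppp1r15a transcript held between 74.5% and 90.2% in all 6 libraries.

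**Figure D3:**
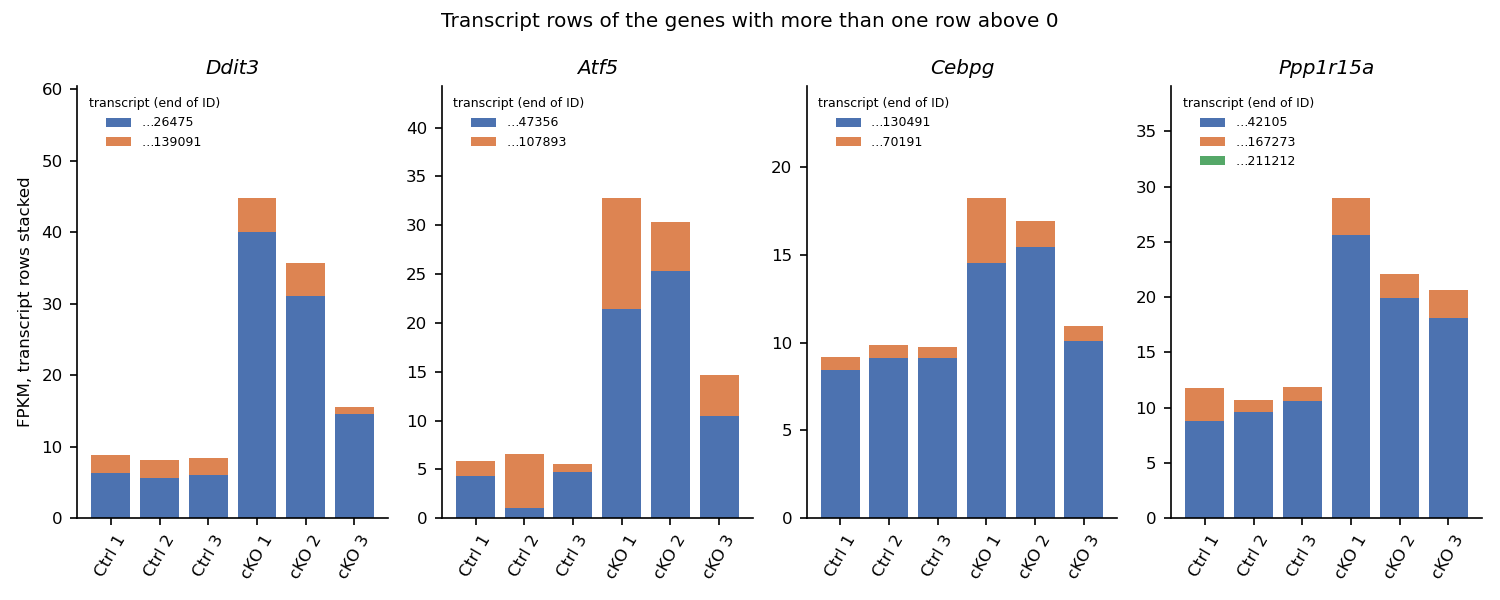
FPKM of each transcript (stacked bars, vertical axes from 0) of Ddit3, Atf5, Cebpg and Ppp1r15a in the 6 libraries, with transcripts named by the end of their identifiers. The lower segment of Ddit3 takes up most of the higher cKO bars, and the split of Atf5 changes between Ctrl libraries while the height of the bars stays near 6 FPKM.

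Several of the genes overlap a neighbour on the opposite strand in the GENCODE M21 annotation, and whether strand was used when fragments were assigned is not given in the sources used here. Ddit3 shares 68 bases with Mars, a methionyl-tRNA synthetase gene at 16.6 to 18.6 FPKM in Ctrl and 25.4 to 31.0 FPKM in cKO hearts. Cebpb shares 908 bases with Tmem189, which was at 13.9 to 15.4 FPKM in Ctrl and 15.7 to 18.8 FPKM in cKO hearts. Atf5 shares 571 bases with Nup62 (9.42 to 26.4 FPKM in Ctrl and 10.7 to 29.5 FPKM in cKO), and Ppp1r15a shares 717 bases with Tulp2, which stayed below 0.8 FPKM. On the same strand, Cebpg shares 1140 bases with Gm44836 (2.22 to 3.05 FPKM in Ctrl and 2.29 to 3.63 FPKM in cKO). A second Ddit3 record shares 2925 bases with Ddit3 on its strand and has no values here. Reading the strand would not separate these. The share of fragments assigned to the wrong partner was not tested.

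The branch was also followed beyond the 10 genes, from lists drawn up with earlier results of these libraries known. Of 48 listed ATF4 targets, 44 passed the filter, and 40 of them had an unadjusted p under 0.05 as higher in cKO and 0 as lower, where 5.57% of all genes tested were higher and 9.43% lower. This split of all genes, 739 higher and 1251 lower, depended on the scaling, with 961 higher and 1058 lower after rescaling without erythroid genes. Without Slc7a3, which entered the test through its cKO values alone, the count was 39 of 43. The median log2 fold change of the 44 was 0.83. After adjustment over all genes 4 targets remained (0.0528% of all genes were called as higher), and 36 without cKO replicate 3, where 2.04% of all genes were called in either direction. The count was 8 without cKO replicate 2 (0.913% of all genes), 2 without cKO replicate 1 (0.0528%) and 1 without Ctrl replicate 1, 2 or 3 (0.0452%, 0.0377% and 0.0452%). In 40 of the 44 targets cKO replicate 3 was the lowest cKO library (41.3% of all genes tested), and 21 had the full order of cKO replicates shown by the 10 genes (16.6% of all genes tested).

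Among enzymes of amino acid synthesis and one-carbon metabolism, 13 of 13 genes tested were higher at an unadjusted p under 0.05, and their median log2 fold change was 1.41. Mthfd2, of mitochondrial folate metabolism, had 12.9, 15.8 and 13.4 FPKM in Ctrl replicates 1, 2 and 3 and 58.6, 57.6 and 33.8 FPKM in cKO replicates 1, 2 and 3, a log2 fold change of 1.73 (adjusted p = 0.0307 from limma). Its adjusted p was under 0.05 in 6 of 14 alternative settings (0.000169 to 0.213), and above it, among others, with the erythroid covariate, without cKO replicate 1 and without any 1 of the Ctrl libraries. Asns, asparagine synthetase, had a log2 fold change of 1.86 (adjusted p = 0.0603 from limma), and Pycr1 one of 1.44 (adjusted p = 0.0547 from limma). Neither passed the adjusted threshold. Of the amino acid transporters, 8 of 9 were higher, with a median of 0.87. Slc7a5 and Slc3a2, which together form a carrier of large neutral amino acids, rose by 1.41 and 1.07 on the log2 scale (adjusted p = 0.00307 and 0.0185 from limma). The adjusted p of Slc7a5 was under 0.05 in 14 of 14 alternatives (0.000206 to 0.049) and that of Slc3a2 in 7 of 14 (0.000893 to 0.125). Slc7a3, a carrier of cationic amino acids that passed the filter through the cKO libraries alone, had a log2 fold change of 2.80, and without it 7 of 8 transporters were higher.

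Of 12 aminoacyl-tRNA synthetase genes 11 were higher at an unadjusted p under 0.05, and their median log2 fold change was 0.74. Nars, for asparaginyl-tRNA synthetase, had a log2 fold change of 0.85 (adjusted p = 0.0436 from limma), and its adjusted p was under 0.05 in 6 of 14 alternatives (0.00317 to 0.213). Mars had a log2 fold change of 0.69 and Cars one of 0.91, with adjusted p of 0.0603 and 0.0643 from limma. Of 10 stress-signalling and secreted factors tested 8 were higher, with a median of 0.60. The 3 with the smallest p were Sesn2 (log2 fold change 1.25), Stc2 (1.38) and Herpud1 (0.75), and 0 passed after adjustment. Gdf15 and Fgf21, secreted proteins known as signals of mitochondrial stress, did not pass the filter on low values. Gdf15 had 0.0754, 0.268 and 0.0276 FPKM in Ctrl replicates 1, 2 and 3 and 3.88, 4.30 and 0.705 FPKM in cKO replicates 1, 2 and 3, so that its groups did not overlap and cKO replicate 3 kept it below the filter. Fgf21 was at most 0.089 FPKM in any library.

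The genes upstream of ATF4 were measured as well. Of 7 genes for eIF2alpha kinases, eIF2alpha itself, the constitutive phosphatase partner and the mitochondrial relay protease, 2 were higher at an unadjusted p under 0.05, 0 were lower, and the median log2 fold change was 0.01. Eif2ak3, which encodes PERK, had a log2 fold change of 0.01, Eif2ak2 one of -0.19, Eif2ak4 one of -0.16, Eif2s1 one of 0.16 and Oma1 one of 0.00236, none past that threshold. When single libraries were left out, Eif2s1 ranged from 0.0937 (without Ctrl replicate 1) to 0.25 (without cKO replicate 1) and Eif2ak4 from -0.21 (without cKO replicate 1) to -0.082 (without cKO replicate 3). Eif2ak4 changed sign, to 0.25, with its most abundant transcript. Ppp1r15b, the constitutive counterpart of Ppp1r15a, differed by 0.34 (adjusted p = 0.199 from limma). Eif2ak1, the haem-regulated kinase, had a log2 fold change of 0.42, which was 0.12 with the erythroid covariate, 0.29 without cKO replicate 3 and 0.62 without cKO replicate 2 (adjusted p = 0.308, 0.724, 0.478 and 0.0495 from limma). It had 15.3, 18.3 and 16.6 FPKM in Ctrl replicates 1, 2 and 3 and 25.4, 16.7 and 27.1 FPKM in cKO replicates 1, 2 and 3. Its lowest cKO library was replicate 2, and the part of the erythroid share of the libraries in its values was not tested. Message levels do not report kinase activity.

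Genes of neighbouring pathways were read against the same shares of all genes, 5.57% higher and 9.43% lower at an unadjusted p under 0.05. Of 18 chaperones and ATF6-XBP1 targets of the endoplasmic reticulum, 2 were higher at an unadjusted p under 0.05, Atf6 (log2 fold change 0.66) and Sel1l (0.48), 0 were lower, and the median log2 fold change was 0.02. Hyou1, a chaperone of this compartment, had a log2 fold change of 0.22 and did not pass. Its value was not stable: 1.55 from its most abundant transcript alone, 0.12 without Ctrl replicate 1 and 0.15 without cKO replicate 2. It reached an unadjusted p under 0.05 with both other scalings (0.25 with each, unadjusted p = 0.0485 and 0.0415 from limma). Of 5 genes linked to CHOP in redox control and cell death, Ero1l (log2 fold change 0.51) and Bbc3 (0.43) were higher and Bcl2l11 (-0.21) lower at that threshold. Bcl2l11 changed sign, to 0.15, with its most abundant transcript. The median of the 5 was 0.14. Of 24 other bZIP factors 4 were higher and 2 lower, with a median of 0.01, and the 3 with the smallest p were Junb (log2 fold change 0.77), Jund (0.30) and Mafk (0.41). In the limma fit 0 genes of these 3 lists passed after adjustment.

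**Figure D4:**
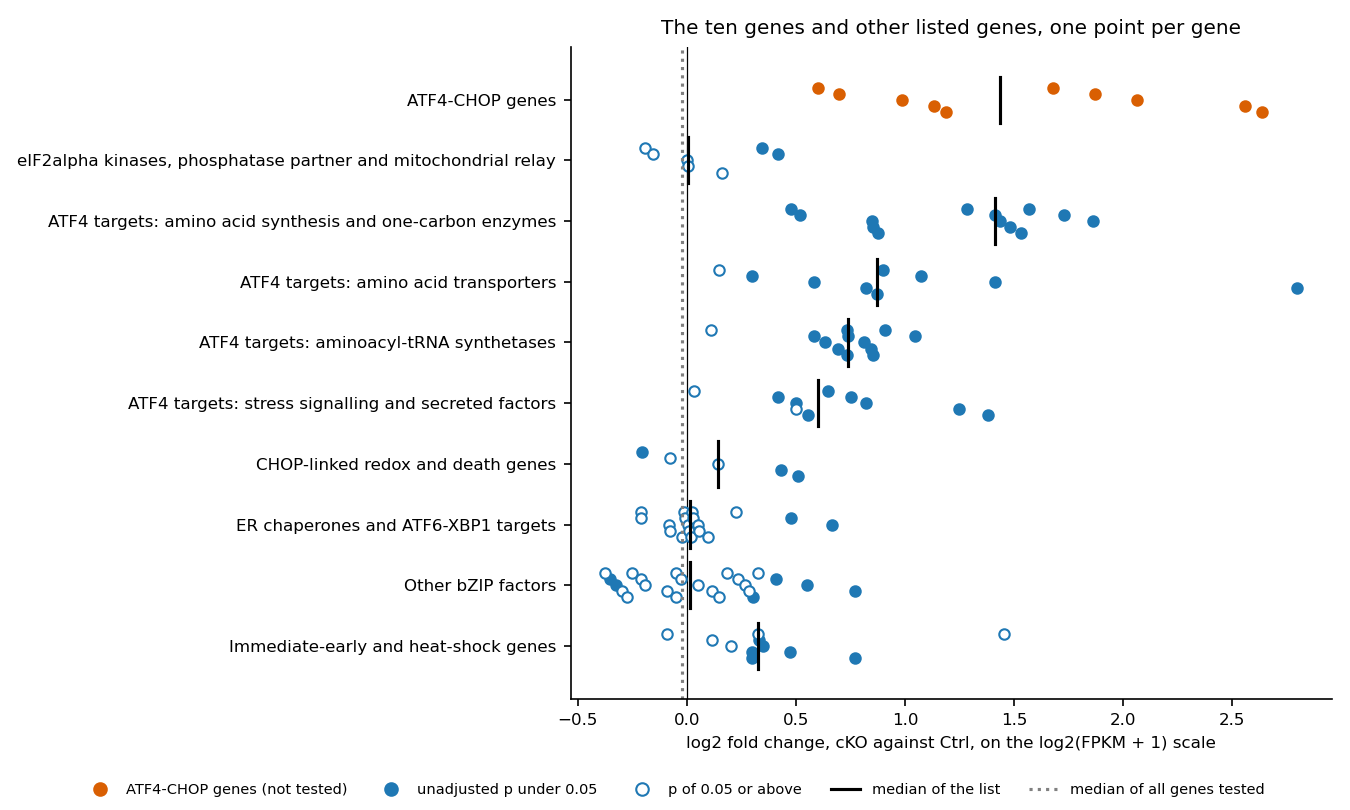
Log2 fold change of cKO against Ctrl on the log2(FPKM + 1) scale (horizontal axis), 1 point per gene, for the 10 genes and 9 other lists, with black bars for list medians, a dotted line for the median of all genes tested, and filled blue points for an unadjusted p under 0.05. The 4 lists of ATF4 targets have medians from 0.60 to 1.41, and the kinase, chaperone and other bZIP lists have medians of 0.01 to 0.02, the CHOP-linked list 0.14 and the immediate-early and heat-shock list 0.33.

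Other differences between the libraries moved along with the groups in part. Erythroid markers made up 12.2%, 13.3% and 12.0% of summed FPKM in Ctrl replicates 1, 2 and 3 and 23.5%, 10.8% and 22.0% in cKO replicates 1, 2 and 3, and 7 of 13 were higher at an unadjusted p under 0.05. In cKO replicate 2, where the erythroid share was below that of every Ctrl library, the median log2 difference of the 10 genes was 1.62. With the erythroid level as a covariate the median log2 fold change of the 10 genes was 1.53. These values are among those that chose the genes, and the part of the erythroid share in them was not tested. Cardiomyocyte markers summed to 11033 to 13421 FPKM in Ctrl and 9782 to 10966 FPKM in cKO hearts, with 7 of 14 lower and 1 higher at an unadjusted p under 0.05. As shares of summed FPKM they overlapped, at 2.664%, 2.358% and 2.858% in Ctrl and 1.896%, 2.363% and 2.168% in cKO replicates 1, 2 and 3. In bulk tissue, fewer cells of a type and less RNA per cell cannot be told apart, and the part of this difference in the values of the 10 genes was not tested.

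Immediate-early and heat-shock genes, which respond to handling and many other stimuli, ranked the cKO libraries in part as the 10 genes did. This order held in 8 of the 11 tested, where 16.6% of all genes tested had it. Their summed FPKM was 90.8, 84.5 and 88.5 in Ctrl replicates 1, 2 and 3 and 176, 102.5 and 93.2 in cKO replicates 1, 2 and 3. The heat-shock genes Hspa1a and Hspa1b, picked out after their values were seen, had 22.5 and 28.1 FPKM in cKO replicate 1 and at most 1.68 FPKM in any other library, and so held much of the excess of that sum. At an unadjusted p under 0.05, 6 of 11 were higher, among them Junb (log2 fold change 0.77), which is also on the bZIP list, Ier3 (0.47) and Dusp1 (0.33), and the median log2 fold change was 0.33. Without cKO replicate 1 the value of Ier3 was 0.29, and with the erythroid covariate that of Dusp1 was 0.20. In cKO replicate 2 their median log2 difference was 0.30, beside 1.62 for the 10 genes, and in cKO replicate 3 it was 0.03, beside 0.84. Their part in the level of Atf3, itself an immediate-early gene, was not tested.

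Markers of other cell types of the heart were measured in the same libraries. Of 10 endothelial markers 1 was higher and 1 lower at an unadjusted p under 0.05, with Cdh5 at 39.5 to 42.3 FPKM in Ctrl and 35.5 to 44.3 FPKM in cKO hearts. Of 6 epicardial markers 1 was higher, of 8 mesenchymal markers 0 differed, and of 5 smooth muscle markers 3 were lower. Of 5 leukocyte markers tested 1 was lower, the lysozyme gene Lyz2 (log2 fold change -0.84), and of 3 neural markers 1 was higher, Tubb3 (log2 fold change 0.47), and 1 lower. The leukocyte markers Ptprc, Fcgr1 and Adgre1 did not pass the filter on low values. Their part in the values of the 10 genes was not tested.

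**Figure D5:**
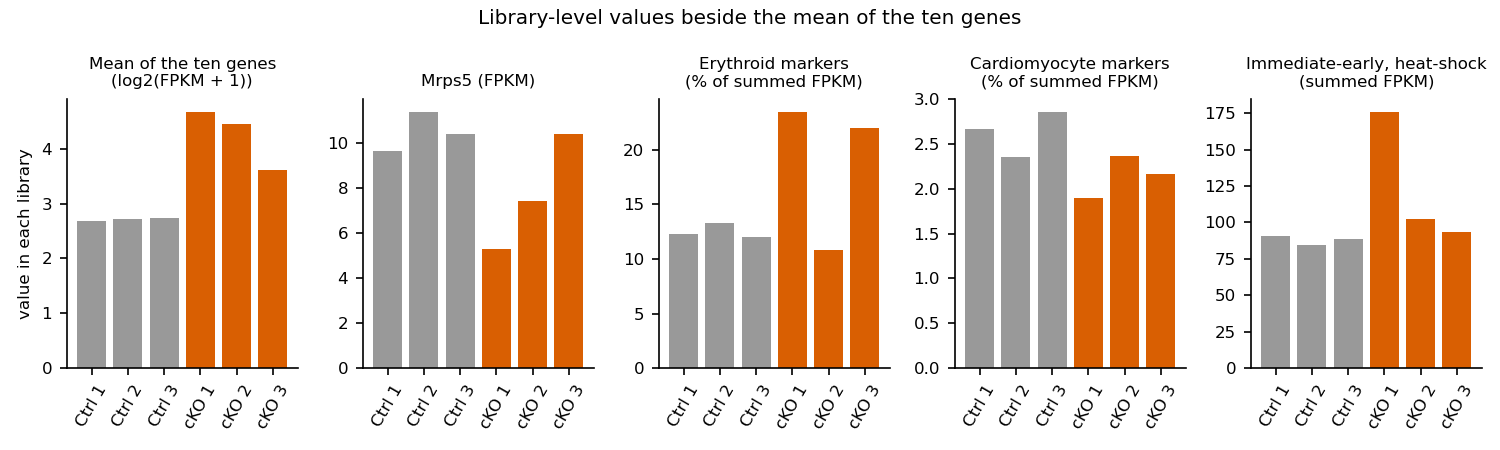
Mean log2(FPKM + 1) of the 10 genes, FPKM of Mrps5, shares of erythroid and cardiomyocyte markers in summed FPKM, and summed FPKM of immediate-early and heat-shock genes in each library (bars from 0, Ctrl in grey, cKO in orange). The mean of the 10 genes is highest in cKO replicate 1 and lowest among cKO libraries in replicate 3, the library with 10.4 FPKM of Mrps5, while the erythroid share is high in cKO replicates 1 and 3.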

How the data were processed

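RNA was sequenced from 6 libraries, 3 per group, made from rRNA-depleted total RNA with a stranded kit. The study's RNA sequencing methods, which do not name the embryonic hearts, describe instead mRNA purified with poly-T beads. The submitters' processing notes name Bowtie2 2.2.8, HISAT2, StringTie 1.3.1, Cuffdiff 2.1.1 and mm9, without role or order, and the annotation release is not given in the sources used here. The authors deposited 1 table of FPKM for 60776 transcript rows. Rows were summed per gene, identifier versions joined, and genes with at least 1 FPKM in at least 3 libraries kept. Log2(FPKM + 1) was fitted over all genes with limma 3.58.1 (R 4.3.3, eBayes with trend, Benjamini-Hochberg adjustment), after the code had been tested on simulated data. Counts were not analysed here, so the counting error is unknown. Alternatives changed the added value, the filter, the scaling, the gene level, an erythroid covariate, the replicate block and each replicate in turn. The 10 genes and all lists were chosen with earlier results of these data known. Of other lists the text names every gene past the adjusted threshold and the 3 with the smallest p, all of the kinase list, the most abundant marker of each cell type where its value is given, and the 6 most alike genes. Pools are separate by the study's account, and p-values measure the spread between pools.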

Additional observations from a re-analysis of the deposited data

How the results depend on the processing

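The log2 fold changes of the 10 genes kept their sign in 138 of 138 alternatives. Of these 3 moved by more than the replicate spread: Chac1 and Nupr1 with 0.1 added (4.55 and 3.25) and Chac1 after rescaling without erythroid genes (3.53). That rescaling raised every value above 0 before 1 was added, so the added 1 weighed less. With median-of-ratios scaling Chac1 was 2.65. Their median was 1.23 to 1.73 when single libraries were left out, and 9 or 10 genes had separate groups. The overlap of groups was not recomputed for the added value, the covariate or the block, which leave it as it is or give no library values, nor for the filter, where a mean FPKM of at least 5 leaves out Chac1 and Nupr1. Counts at the adjusted threshold depended on the setting. For all genes (11) they were 6 without a filter, 4 with the most abundant transcript and 5 to 270 when single libraries were left out. For the ATF4 targets (4) they were 1 without a filter, with the most abundant transcript or with the erythroid covariate, and 1 to 36 when single libraries were left out. For the 10 genes (2) they were 4 with 0.1 added, where all genes numbered 16. They were 1 without a filter, with the most abundant transcript or with the covariate, where all genes numbered 6, 4 and 9. When single libraries were left out they were 1 to 10. This contrast chose the 10 genes, so nothing is read from their counts. At the unadjusted threshold all genes (1990) numbered 1314 at a mean FPKM of at least 5 and 1216 to 2167 when single libraries were left out, and the ATF4 targets 36 to 42. The higher and lower calls over all genes (739 and 1251) were 913 and 1113 with median-of-ratios scaling and 667 and 692 with the erythroid covariate. The cause of these changes in the counts was not tested.

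Same-numbered libraries deviated together with r = 0.217, 0.110 and 0.0901, so the third pair missed 0.1, the numbers name different pools, and the libraries were not taken as paired. Every library correlated best with its own number, a hint from the data. With the replicate block 4 genes passed the adjusted threshold, among them 1 ATF4 target and 1 of the 10 genes. The count of the 10 is not read, since this contrast chose them. With the block 41 targets passed unadjusted. The adjusted p of Mthfd2 and Slc3a2 was then 0.0616 and that of Nars 0.0763.

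Small differences changed sign. With the most abundant transcript Eif2ak3 was -0.0371, Eif2ak4 0.25 and Bcl2l11 0.15. With the erythroid covariate the cell type markers moved, and Hbb-y was -0.0578, Cdh5 0.0925, Upk3b -0.00619 and Col3a1 0.16. Cdh5 was 0.000156 with median-of-ratios scaling and 0.00207 after rescaling without erythroid genes. When single libraries were left out, Eif2ak3 ranged from -0.0702 to 0.0722, Oma1 from -0.0485 to 0.0695, Cdh5 from -0.10 to 0.057, Upk3b from -0.000978 to 0.13 and Col3a1 from -0.17 to 0.0802.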
